A study of Mus musculus with 25 samples.

Results

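The comparison set the effect of losing both Mst kinases against the effect of losing Mst1 alone in mouse thymic invariant natural killer T (iNKT) cells of stages 1 and 2, a sort labelled S1_S2. Its members were chosen by label and title number: 12 of the 25 arrays of the series, namely 2 dKOMst arrays (Mst1 and Mst2 both lost) with the 3 WT arrays of the later title numbers (WT arrays 4 to 6), and 4 Mst1KO arrays (Mst1 lost) with the 3 WT arrays of the earlier title numbers (WT arrays 1 to 3). All groups were C57BL/6 thymus cells, sorted as TCRβ+, positive for the CD1d-PBS57 tetramer and CD24-; stage 1 was CD44- NK1.1-, stage 2 CD44+ NK1.1- and stage 3 CD44+ NK1.1+. The labels do not state the promoter or Cre behind each deletion, the age of the mice, the share of stage 1 and stage 2 cells in an S1_S2 sample or whether each array came from its own mouse. The p-values therefore measure the spread between samples, pooled over all 25 arrays of the series, stage 3 included, and that spread may be technical.

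Mst1 (gene Stk4) and Mst2 (gene Stk3) are the serine/threonine kinases at the head of the Hippo pathway, which activate the LATS and NDR kinases with the help of SAV1 and MOB1 and so restrain the coactivator YAP. In lymphocytes Mst1 is best known for its part in adhesion, migration and egress from the thymus, and for holding back the proliferation of naive T cells. iNKT cells carry a semi-invariant T cell receptor that recognises lipids on CD1d, and mature into interferon-γ-producing (NKT1), interleukin-4-producing (NKT2) and interleukin-17-producing (NKT17) subsets.

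Mst1KO cells were hybridised only among the earlier-numbered arrays and dKOMst cells only among the later-numbered ones, so each genotype was set against the WT arrays of its own number block. The double loss effect is the mean log2 level in dKOMst minus that in later-numbered WT, the single loss effect is Mst1KO minus earlier-numbered WT, and the difference is the first minus the second. A positive difference therefore means a higher level after double loss than after single loss, each relative to its own WT. A difference was called where the Benjamini-Hochberg adjusted p of limma's moderated test, over all 22206 transcript clusters (the array's unit for a gene), was below 0.05. With 2 dKOMst arrays the median 95% interval of a difference reached 0.438 log2 units to either side. It reached 0.336 for the double loss effect and 0.281 for the single loss effect. These intervals are not adjusted for the number of clusters tested, so at a typical spread a call took a larger change than they show. On simulated data the difference recovered 14% of changes of 0.5 log2 units and 78% of changes of 1. All 13 called rises and 8 of the 10 called falls were at least 2-fold.

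Replicates correlated at 0.991 between the dKOMst arrays, 0.9915 to 0.992 in later-numbered WT, 0.9906 to 0.9927 in Mst1KO and 0.9828 to 0.9874 in earlier-numbered WT. Within earlier-numbered WT, array 3 stood apart. The later-numbered WT arrays were higher than the earlier-numbered ones in 138 clusters (0.621%) and lower in 23, together 0.725% of all clusters, and that count ran between 3 and 786 as single arrays were left out. Mst1KO arrays 3 and 4 had no Y-linked signal (list means of 4.81 and 4.84), and the other 10 arrays had it (7.19 to 8.02). Depth cannot be stated for arrays, where the number of arrays limits the precision.

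Stk4, which encodes Mst1, checked the labels. Its level was 10.27 and 9.62 in dKOMst against 10.74, 10.54 and 10.55 in later-numbered WT. It was 9.40, 9.31, 9.22 and 9.31 in Mst1KO against 10.39, 10.38 and 10.18 in earlier-numbered WT. Every Mst1KO array lay below every earlier-numbered WT array, and both dKOMst arrays lay below the later-numbered WT arrays, array 1 by less than array 2. The single loss effect was -1.005 ± 0.18 (SE, adjusted p = 0.00812), the double loss effect -0.66 ± 0.21 (adjusted p = 0.194) and the difference 0.34 (95% interval -0.23 to 0.91, adjusted p = 0.843). Without WT array 1 the single loss call was lost (adjusted p = 0.0607). Where the probes lie relative to the deleted part of the gene is not given, so a remaining signal does not show remaining protein. The probes of Stk3, the gene of Mst2, are unnamed here, and its level was not analysed here.

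Double loss differed from single loss in 23 clusters, 13 higher and 10 lower, 0.104% of the 22206 tested (0.0585% higher and 0.045% lower); 1633 clusters had an unadjusted p below 0.05. Genes higher after double loss included Tnni1, Gcsam, Sulf2, Fcer1g, Klhdc2, P3h4 and Il4ra, and genes lower after double loss included Samd3, Clnk, Pde5a, Arsb, Jaml and the survival genes Bcl2a1b and Bcl2a1d. Of the 23 clusters, 21 were also called in the double loss effect, 2 (Jaml and Hlf) in the single loss effect and 0 in both. The double loss effect was the larger in size in 21 of 23, and in 14 the 2 effects had opposite signs. The 23 were picked on the difference of these same 2 effects, so these counts are no separate evidence. Of all clusters 52.2% had the same sign in both effects, 0.761% were called in the double loss effect and 0.342% in the single loss effect. In 17 of 23 each of the 4 sets of arrays had at least 1 array above its own median negative control, and 1 gene, Thrsp, was above it on no array. The count ranged from 3 to 37 as each of the 12 arrays was left out: 3 without dKOMst array 1 (Tnni1, Gcsam and Col6a4), 34 without dKOMst array 2 and 37 without WT array 3. In bulk samples like these, fewer cells of a type and less RNA per cell cannot be told apart.

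**Figure D1:**
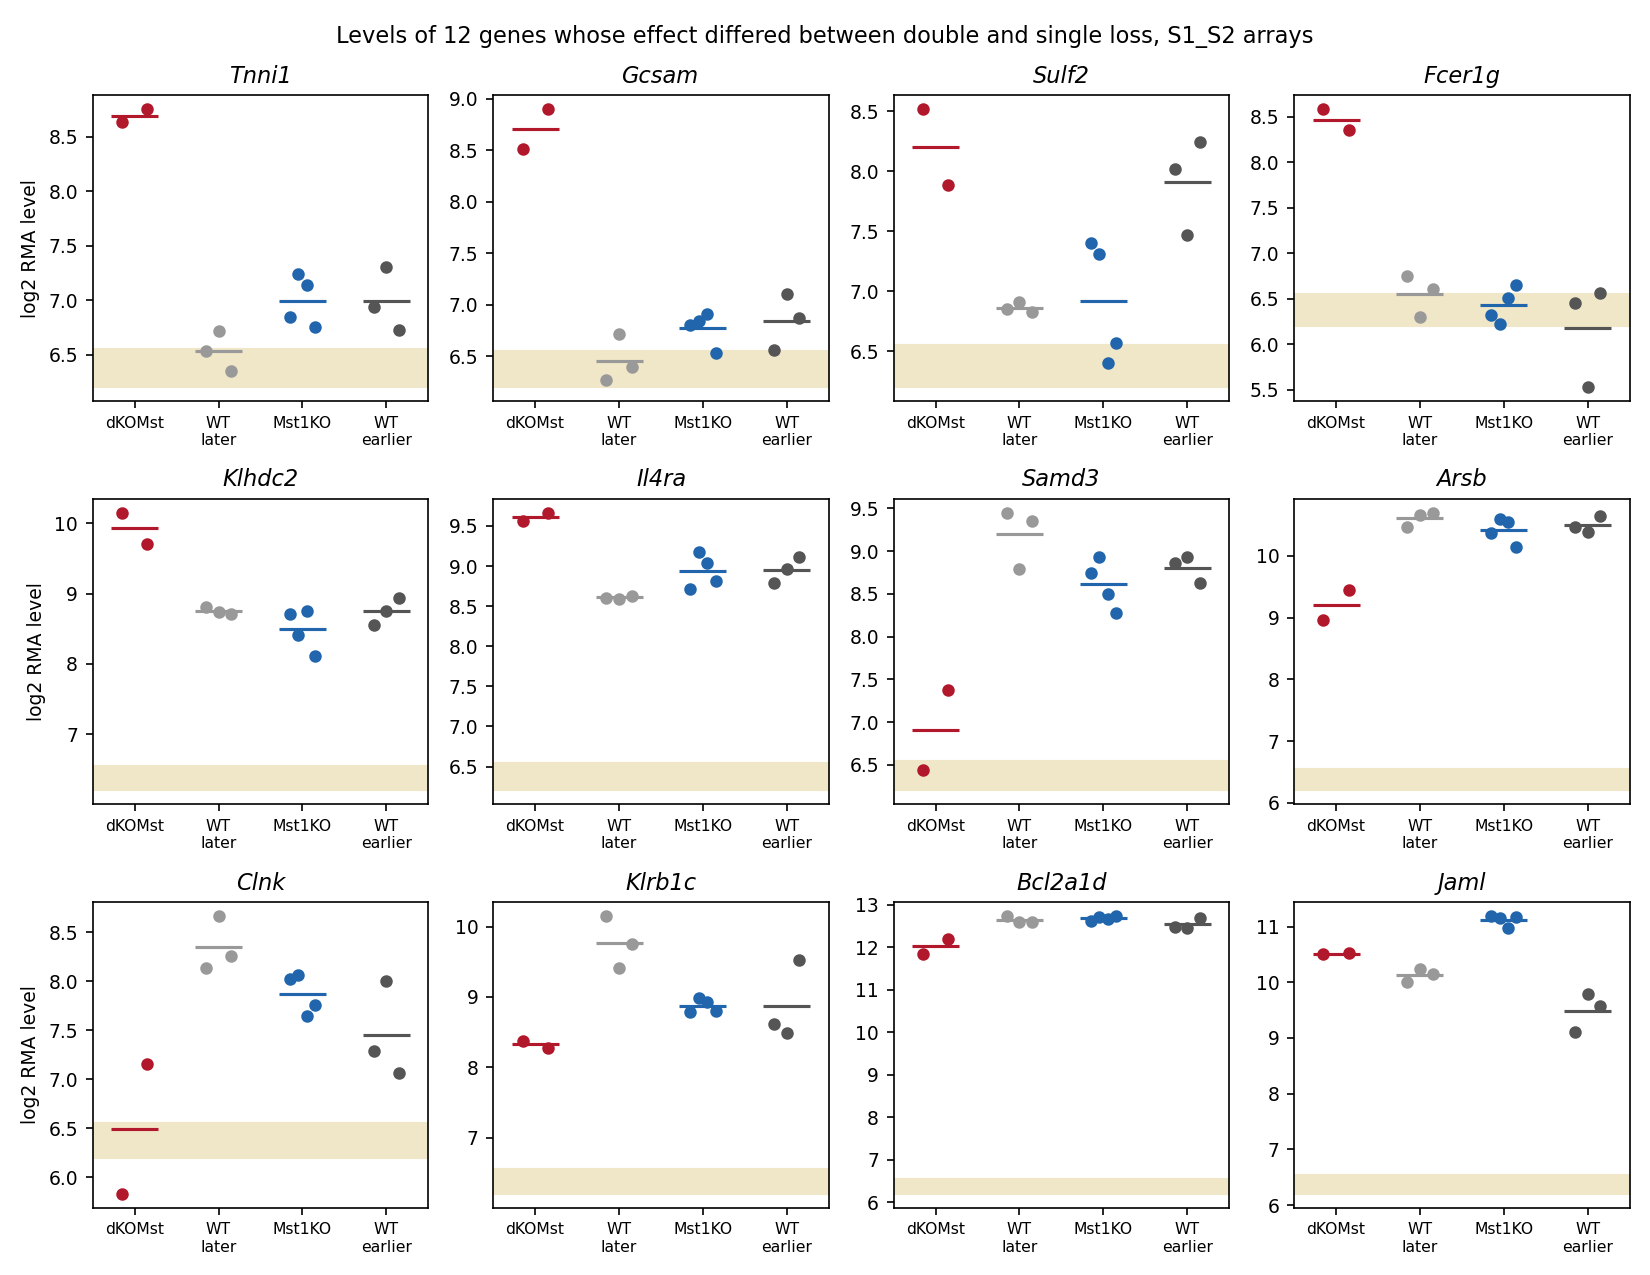
Log2 RMA level of 12 genes with a called difference; each point is 1 array, each line the mean of its set, and the shaded band spans the median negative control level of the 12 arrays. Sets run from dKOMst and its later-numbered WT on the left to Mst1KO and its earlier-numbered WT on the right. The 2 dKOMst arrays lie above all 10 other arrays in the panels of Tnni1, Gcsam, Fcer1g, Klhdc2 and Il4ra and below all of them in those of Samd3, Arsb, Klrb1c and Bcl2a1d, while Mst1KO is the highest set for Jaml.

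Tnni1, which encodes the slow skeletal muscle isoform of troponin I, was 8.63 and 8.75 in dKOMst against 6.53, 6.71 and 6.35 in later-numbered WT. In Mst1KO it was 6.85, 7.24, 7.14 and 6.75 against 6.93, 7.31 and 6.72 in earlier-numbered WT. The dKOMst arrays did not overlap any other array, and the Mst1KO and earlier-numbered WT arrays overlapped. The double loss effect was 2.16 ± 0.18 (4.48-fold), the single loss effect 0.00 ± 0.15 and the difference 2.16 ± 0.24 (adjusted p = 0.000132). Gcsam, an adaptor of germinal centre lymphocytes, behaved alike: 8.52 and 8.90 in dKOMst against 6.27, 6.71 and 6.39 in later-numbered WT, and 6.80, 6.85, 6.91 and 6.53 in Mst1KO against 6.56, 7.10 and 6.87 in earlier-numbered WT. Its difference was 2.32 ± 0.29 (5.00-fold, adjusted p = 0.000547). Of the 21 named differences put through the 22 alternative settings, these 2 were called in every one.

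Sulf2, an extracellular enzyme that trims 6-O-sulfate groups from heparan sulfate, had the largest called difference among named genes, 2.33 ± 0.40 (adjusted p = 0.0134). Its level was 8.52 and 7.89 in dKOMst against 6.85, 6.91 and 6.82 in later-numbered WT, and 7.40, 7.31, 6.40 and 6.57 in Mst1KO against 8.02, 7.47 and 8.24 in earlier-numbered WT. The effects had opposite signs: the double loss effect was 1.34 ± 0.31 (adjusted p = 0.039) and the single loss effect -0.99 ± 0.26 (adjusted p = 0.119). The earlier-numbered WT arrays overlapped the dKOMst arrays, and the WT level was 1.05 log2 units lower in the later-numbered arrays than in the earlier-numbered ones (adjusted p = 0.0712). The 2 Mst1KO arrays without Y-linked signal were the 2 lowest. With those 2 arrays left out the difference was 1.89 (adjusted p = 0.139), with all 6 WT arrays as 1 group it had an adjusted p of 0.0975, and without dKOMst array 1 one of 0.242. The double loss call was lost when any 1 of 5 arrays, both dKOMst arrays and the 3 later-numbered WT arrays, was left out (adjusted p of at most 0.555).

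Fcer1g encodes the signalling chain shared by several Fc and NK receptors. Its level was 8.58 and 8.35 in dKOMst against 6.75, 6.30 and 6.61 in later-numbered WT, and 6.33, 6.22, 6.51 and 6.66 in Mst1KO against 6.45, 5.53 and 6.57 in earlier-numbered WT. Both dKOMst arrays lay above all 10 others, which overlapped, and the difference was 1.67 ± 0.31 (adjusted p = 0.0292). That call was lost when any 1 of 8 of the 12 arrays was left out, with an adjusted p of at most 0.288, while the double loss effect alone (1.91 ± 0.24, adjusted p = 0.000129) kept its call in every such fit. The list of NK cell markers, of which Fcer1g is 1 of 7 measured, had means of 6.91 and 6.79 in dKOMst against 6.32 to 6.33 in later-numbered WT, and 6.26 to 6.38 in Mst1KO against 6.13 to 6.5 in earlier-numbered WT. These means include Fcer1g itself and so are not separate from its rise. The median double loss effect of the 7 was 0.363, 5 of 7 were above 0, and 2 were above the negative controls on no array. The defining member of the list, Ncr1, was below the negative controls on all 12 arrays. Eomes was above them on the 2 dKOMst arrays only (6.99 and 7.01), and the part of NK cells in the Fcer1g result was not tested. The sort was for TCRβ+, tetramer-positive and NK1.1- cells, a gate meant to leave NK cells out, and its purity was not tested. Klrb1, a member of the Klrb1 lectin receptor family, was 7.33 and 7.11 in dKOMst against 5.38, 5.00 and 5.06 in later-numbered WT, where no array was above the negative controls. It was thus at least 1.85-fold higher in dKOMst (double loss effect, adjusted p = 8.53e-05), while in Mst1KO (5.01 to 5.86) and earlier-numbered WT (5.09 to 5.30) no array was above them either. Its difference (adjusted p = 0.0395) lost its call when any 1 of 9 of the 12 arrays was left out.

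Klrb1c, which encodes NK1.1 itself, is the gene of the protein that kept cells out of the S1_S2 gate in every group, and its level there is not a free readout. It was 8.38 and 8.27 in dKOMst against 10.15, 9.41 and 9.76 in later-numbered WT, and 8.79, 8.99, 8.92 and 8.79 in Mst1KO against 8.61, 8.49 and 9.52 in earlier-numbered WT. The difference of -1.44 ± 0.28 (adjusted p = 0.0409) rested partly on the WT arrays, which were 0.90 log2 units higher in the later-numbered block (adjusted p = 0.0358). With all 6 WT arrays as 1 group it was -0.55 (adjusted p = 0.356), and leaving out any 1 of 10 of the 12 arrays ended the call. Cd44, whose protein separates stage 1 from stage 2, had a difference of -0.18 (95% interval -0.57 to 0.22, adjusted p = 0.899), and Cd24a was below the negative controls on all 12 arrays.

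Klhdc2, a substrate receptor of a cullin ubiquitin ligase, was 10.15 and 9.70 in dKOMst against 8.81, 8.74 and 8.70 in later-numbered WT, and 8.71, 8.41, 8.74 and 8.11 in Mst1KO against 8.55, 8.75 and 8.94 in earlier-numbered WT. The dKOMst arrays were the 2 highest of the 12, and the difference was 1.43 ± 0.24 (2.70-fold, adjusted p = 0.0103). P3h4, a member of the prolyl 3-hydroxylase family of the collagen-modifying machinery, was 8.62 and 8.77 in dKOMst against 7.41, 7.16 and 7.45 in later-numbered WT, with Mst1KO between 7.21 and 7.62 and earlier-numbered WT between 7.08 and 7.63 (difference 1.26 ± 0.20, adjusted p = 0.0088). Col6a4, a collagen VI chain, was 7.46 and 7.70 in dKOMst and was above the negative controls on none of the later-numbered WT arrays (6.09 to 6.15), so it was at least 2.37-fold higher (double loss effect, adjusted p = 3.49e-06). Syde2 had a difference of 1.14 ± 0.21 (adjusted p = 0.0215). Npas4, an activity-dependent transcription factor described in neurons, was 7.94 and 7.31 in dKOMst and at most 6.91 on the other 10 arrays. Its double loss effect was 1.39 ± 0.23 (adjusted p = 0.00275). No Mst1KO array was above the negative controls, so its called difference (adjusted p = 0.00961) is given without a size. Klhdc2, P3h4, Syde2 and Npas4 lost their call without dKOMst array 1, with adjusted p of 0.215, 0.0715, 0.342 and 0.215, and Syde2 also without WT array 5 or Mst1KO array 4.

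Il4ra, the signalling chain of the interleukin-4 and interleukin-13 receptors, was 9.56 and 9.67 in dKOMst against 8.61, 8.59 and 8.62 in later-numbered WT. In Mst1KO it was 8.72, 9.18, 9.04 and 8.82 against 8.79, 8.97 and 9.11 in earlier-numbered WT. Both dKOMst arrays exceeded all others, the double loss effect was 1.01 ± 0.15 (adjusted p = 0.00111), and the difference of 1.02 ± 0.20 (adjusted p = 0.0437) was called in the fit of all arrays but lost its call in 16 of the 22 other settings. Among the 28 measured cytokine receptor and cytokine signal genes, 3 rose after double loss (Il4ra, Il9r at 0.82 and Il21r at 1.17) and 0 after single loss, against 0.419% and 0.225% of all clusters called higher. The differences of Il9r (0.77, adjusted p = 0.129) and Il21r (1.25, adjusted p = 0.221) did not pass. Without dKOMst array 1 the double loss calls of Il9r and Il21r were lost (adjusted p of 0.163 and 0.287), as was that of Il21r without dKOMst array 2, WT array 4 or WT array 5. The median difference of the list was 0.03, against 0.02 over all clusters.

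Samd3, which encodes a protein with a sterile alpha motif, had the most negative double loss effect among the 23 called differences (-2.29, adjusted p = 7.61e-06). It was 6.44 and 7.38 in dKOMst against 9.45, 8.79 and 9.36 in later-numbered WT, and 8.75, 8.93, 8.503 and 8.28 in Mst1KO against 8.86, 8.93 and 8.63 in earlier-numbered WT. The dKOMst arrays were the 2 lowest of the 12, though they differed from each other by more than any other set, and the difference was -2.10 ± 0.30 (adjusted p = 0.00337). Arsb, the lysosomal enzyme arylsulfatase B, was 8.96 and 9.45 in dKOMst against 10.47, 10.66 and 10.70 in later-numbered WT, with Mst1KO between 10.15 and 10.59 and earlier-numbered WT between 10.38 and 10.65 (difference -1.32 ± 0.20, adjusted p = 0.00502). Clnk, an immunoreceptor adaptor related to SLP-76, was 5.83 and 7.16 in dKOMst against 8.13, 8.67 and 8.26 in later-numbered WT, and 8.03, 8.06, 7.65 and 7.75 in Mst1KO against 7.29, 7.999 and 7.06 in earlier-numbered WT. Its dKOMst arrays overlapped the earlier-numbered WT range but not their own WT, and the difference was -2.29 ± 0.40 (adjusted p = 0.0143). With all 6 WT arrays as 1 group it was -1.38 (adjusted p = 0.0505), and with an additive block term -1.69 (adjusted p = 0.0776). Pde5a, the cyclic GMP phosphodiesterase, had effects of opposite sign, -1.14 after double loss (adjusted p = 0.0436) and 0.96 after single loss (adjusted p = 0.0653). Its difference was -2.10 ± 0.34 (adjusted p = 0.00961), with later-numbered WT 1.05 above earlier-numbered WT (adjusted p = 0.0392) and a difference of -1.04 (adjusted p = 0.21) against all 6 WT arrays. Slc16a6, of the monocarboxylate transporter family, had a difference of -1.20 ± 0.24 (adjusted p = 0.0451). Without dKOMst array 1 none of these 5 was called, at adjusted p of 0.0791 for Samd3, 0.146 for Arsb, 0.279 for Clnk, 0.215 for Pde5a and 0.564 for Slc16a6. Slc16a6 lost its call with any 1 of 8 arrays left out, and the double loss call of Pde5a with any 1 of 9.

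Bcl2a1 genes encode A1, an anti-apoptotic relative of BCL2, in a family of near-identical mouse copies on chromosome 9. Their annotated promoters are shown because the copies fell together after double loss and were near-identical in promoter sequence wherever they aligned. Each line gives the 250 bases before the transcription start (RefSeq, build GRCm38.p6), in lower case. The longest run common to these 3 and Bcl2a1c is in capitals.
Bcl2a1d: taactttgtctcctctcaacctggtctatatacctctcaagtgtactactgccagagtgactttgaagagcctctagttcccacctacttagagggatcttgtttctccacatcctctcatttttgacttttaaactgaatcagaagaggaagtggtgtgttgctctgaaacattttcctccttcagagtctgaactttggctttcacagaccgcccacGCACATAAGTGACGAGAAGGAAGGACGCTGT
Bcl2a1b: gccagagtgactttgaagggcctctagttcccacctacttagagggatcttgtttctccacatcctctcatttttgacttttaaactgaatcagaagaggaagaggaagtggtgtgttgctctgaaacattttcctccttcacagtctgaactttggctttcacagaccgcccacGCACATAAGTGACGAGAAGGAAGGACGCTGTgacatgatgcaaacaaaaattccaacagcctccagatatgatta
Bcl2a1a: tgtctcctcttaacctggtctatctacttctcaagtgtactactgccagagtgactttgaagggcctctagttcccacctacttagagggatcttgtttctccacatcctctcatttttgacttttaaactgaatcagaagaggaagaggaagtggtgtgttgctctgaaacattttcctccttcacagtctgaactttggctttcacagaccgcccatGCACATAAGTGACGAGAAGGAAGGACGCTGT
The Bcl2a1d stretch is chr9:88731851-88732100 on the minus strand, the Bcl2a1b stretch chr9:89199023-89199272 and the Bcl2a1a stretch chr9:88956670-88956919, both on the plus strand. The shared run of 31 bases ends at the annotated start in Bcl2a1d and Bcl2a1a and begins 75 bases before it in Bcl2a1b, and 4 of 27025 RefSeq promoters of this length hold it on either strand. The pairs of promoters were aligned with unpenalised ends, so identity covers the aligned bases only. It was 97.5% of 244 bases (Bcl2a1a and Bcl2a1d), 99.5% of 206 (Bcl2a1a and Bcl2a1b) and 99.0% of 200 (Bcl2a1b and Bcl2a1d). The motif AGGAAGT, searched on both strands, was in all 4 family promoters and in 7.8% of all promoters, which describes the copies and is no evidence of a factor's binding.

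Bcl2a1d was 11.84 and 12.19 in dKOMst against 12.72, 12.59 and 12.58 in later-numbered WT, and 12.62, 12.70, 12.65 and 12.73 in Mst1KO against 12.48, 12.45 and 12.68 in earlier-numbered WT. Bcl2a1b was 12.08 and 12.22 in dKOMst against 12.78, 12.72 and 12.72 in later-numbered WT, with Mst1KO between 12.71 and 12.85 and earlier-numbered WT between 12.58 and 12.84. In both genes the 2 dKOMst arrays were the lowest of the 12, and the other 3 sets overlapped. The differences were -0.76 ± 0.13 for Bcl2a1d (adjusted p = 0.0145) and -0.64 ± 0.12 for Bcl2a1b (adjusted p = 0.0238). Bcl2a1a fell by 0.70 after double loss (adjusted p = 0.0122), and its difference of -0.87 ± 0.18 missed the threshold (adjusted p = 0.0609). Probes for such copies can share signal, so the 3 values are not independent of each other. Neither difference was called without dKOMst array 1, at adjusted p of 0.288 for Bcl2a1d and 0.302 for Bcl2a1b, and the double loss call of Bcl2a1a was lost (adjusted p = 0.287). Bcl2a1d also lost its call without WT array 4, and Bcl2a1b without WT array 1, 2 or 4 or Mst1KO array 4. Of the 21 measured BCL2 family genes 2 fell in the difference and 3 after double loss, all Bcl2a1 copies, against 0.045% and 0.342% of all clusters, and 0 passed after single loss.

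Jaml and Hlf were the genes with a called difference that were called in the single loss effect and not in the double loss effect. Jaml, an adhesion molecule of the junctional family that costimulates some T cells, was 10.50 and 10.53 in dKOMst against 10.01, 10.23 and 10.14 in later-numbered WT. It was 11.19, 11.16, 10.97 and 11.18 in Mst1KO against 9.10, 9.78 and 9.57 in earlier-numbered WT. Every Mst1KO array was above every other array, and the dKOMst arrays lay above both WT sets. The single loss effect was 1.64 ± 0.13 (3.12-fold, adjusted p = 1.58e-07), the double loss effect 0.38 ± 0.15 (adjusted p = 0.37) and the difference -1.26 ± 0.20 (adjusted p = 0.00869). WT itself was 0.65 higher in the later-numbered block (adjusted p = 0.0354), and with all 6 WT arrays as 1 group the difference was -0.61 (adjusted p = 0.145). It was -1.24 without dKOMst array 1 (adjusted p = 0.124). Hlf, a transcription factor of the PAR bZIP group, was 6.73 to 7.002 in Mst1KO against 6.00 to 6.01 in earlier-numbered WT, where no array was above the negative controls. It was thus at least 1.31-fold higher after single loss (adjusted p = 0.00114), and it was below the negative controls on both dKOMst arrays (6.23 and 6.13) against 6.73, 6.51 and 6.43 in later-numbered WT. With probes at background in the dKOMst and the earlier-numbered WT set, its called difference (adjusted p = 0.00502) is given without a size. It lost its call without dKOMst array 1 (adjusted p = 0.0555) and with all 6 WT arrays as 1 group (adjusted p = 0.0749).

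**Figure D2:**
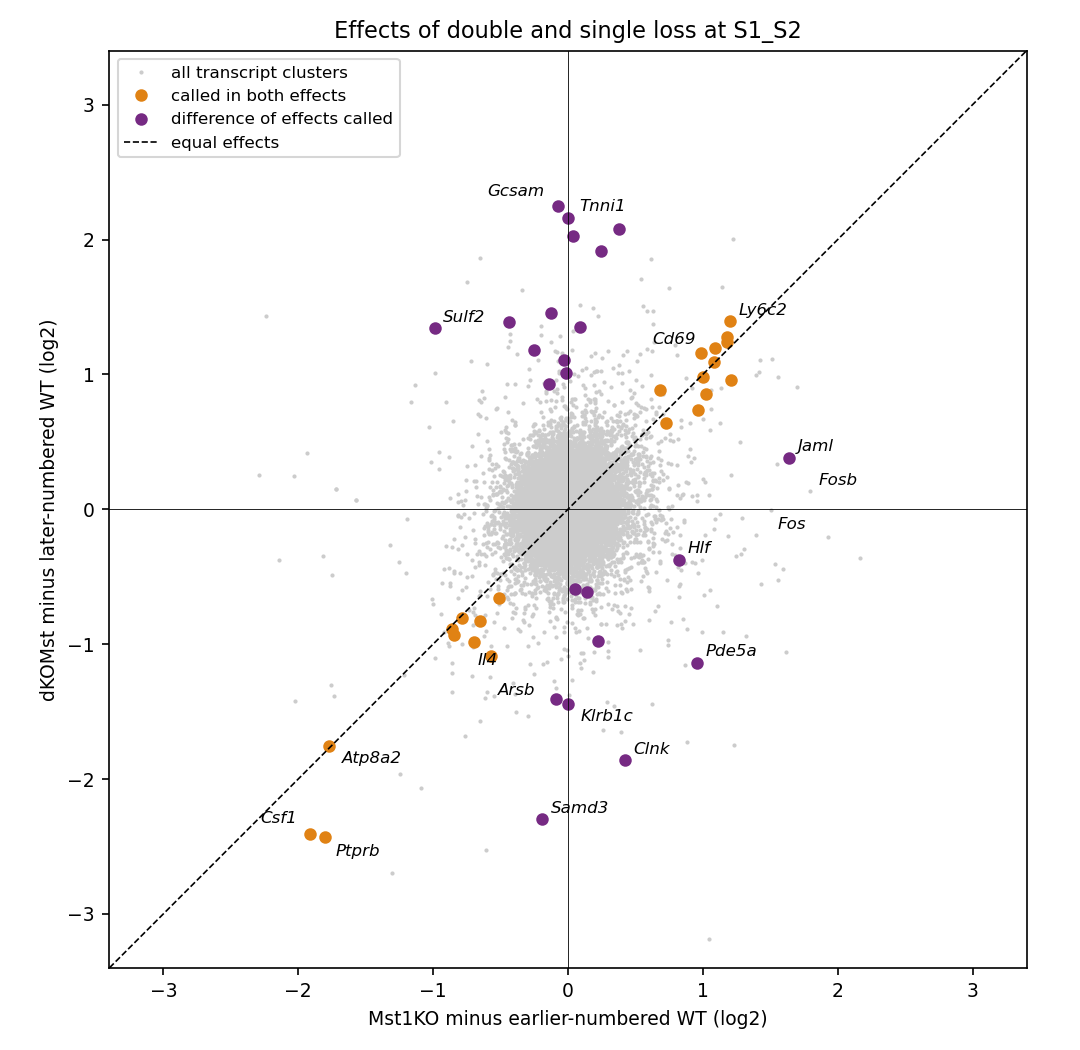
Double loss effect (vertical, dKOMst minus later-numbered WT, log2) against single loss effect (horizontal, Mst1KO minus earlier-numbered WT, log2) for all 22206 clusters; purple marks the 23 called differences, orange the 22 clusters called in both effects, and the dashed line equal effects. Most purple points lie along the vertical axis, with Jaml and Hlf to the right, and the orange points lie along the dashed line.

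Double loss against WT gave 93 higher and 76 lower clusters (0.419% and 0.342% of all, 0.761% together), and single loss against WT 50 higher and 26 lower (0.225% and 0.117%, 0.342% together). The effects share no array, and 22 clusters were called in both, 13% of the double loss calls and 28.9% of the single loss calls. All 22 had the same sign in both effects, and 0 of them had a called difference. The sign was also shared by 70.4% of the 169 double loss calls and 80.3% of the 76 single loss calls, against 52.2% of all clusters. Across all clusters the 2 effects correlated at r = 0.132 (genes are not independent, and each effect rests on 5 or 7 arrays). A missing call does not show equal effects, and the intervals below give how far the effects could differ.

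Genes that rose after both losses included Ly6c2 and Ly6c1, GPI-anchored surface markers of memory-type T cells, Klf6, a zinc-finger transcription factor, Cd69, which retains T cells in tissue by opposing S1PR1, and Emp1, a membrane protein. Ly6c2 was 11.73 and 11.61 in dKOMst against 10.25, 10.26 and 10.30 in later-numbered WT, and 11.28, 11.41, 11.29 and 11.13 in Mst1KO against 10.16, 9.95 and 10.12 in earlier-numbered WT. Both mutant sets were clear of both WT sets. The double loss effect was 1.40 (adjusted p = 3.67e-07), the single loss effect 1.20 (adjusted p = 1.58e-07), and the interval of the difference ran from -0.10 to 0.50. Klf6 rose by 1.24 and 1.18 (double and single loss, interval of the difference -0.44 to 0.58), Cd69 by 1.20 and 1.09 (-0.48 to 0.69) and Emp1 by 1.09 and 1.08 (-0.41 to 0.44). Leaving out either dKOMst array ended the double loss call of Cd69, with an adjusted p of 0.143 without array 1.

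Genes that fell after both losses included Atp8a2, a phospholipid flippase, Csf1, the growth factor of macrophages, and Il4, the signature cytokine of NKT2 cells. Atp8a2 was 7.33 and 7.43 in dKOMst against 8.70, 9.14 and 9.56 in later-numbered WT, and 8.02, 7.81, 8.02 and 8.09 in Mst1KO against 9.70, 9.57 and 9.99 in earlier-numbered WT. All 6 mutant arrays were below all 6 WT arrays, with effects of -1.75 and -1.77 (double and single loss) and an interval of the difference of -0.56 to 0.59. Csf1 had effects of -2.41 and -1.91, with a wide interval of -1.47 to 0.48. Il4 was 10.60 and 10.18 in dKOMst against 11.22, 11.53 and 11.36 in later-numbered WT, and 10.61, 10.52, 10.83 and 10.70 in Mst1KO against 11.39, 11.49 and 11.22 in earlier-numbered WT. The mutant and WT arrays did not overlap, the effects were -0.98 (adjusted p = 0.0018) and -0.70 (adjusted p = 0.0145), and the interval of the difference was -0.71 to 0.14. Its double loss call was lost without dKOMst array 2 (adjusted p = 0.0813) and its single loss call without any 1 of 4 arrays (Mst1KO 1 and 2, WT 1 and 2). Ptprb, a receptor-type tyrosine phosphatase, was below the negative controls on all 6 mutant arrays, so its effects are bounds only. Of the 22, Adam19, a membrane metalloprotease, was the one whose interval excluded 0 (-0.91 to -0.12), and its difference of -0.52 was not called (adjusted p = 0.499).

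**Figure D3:**
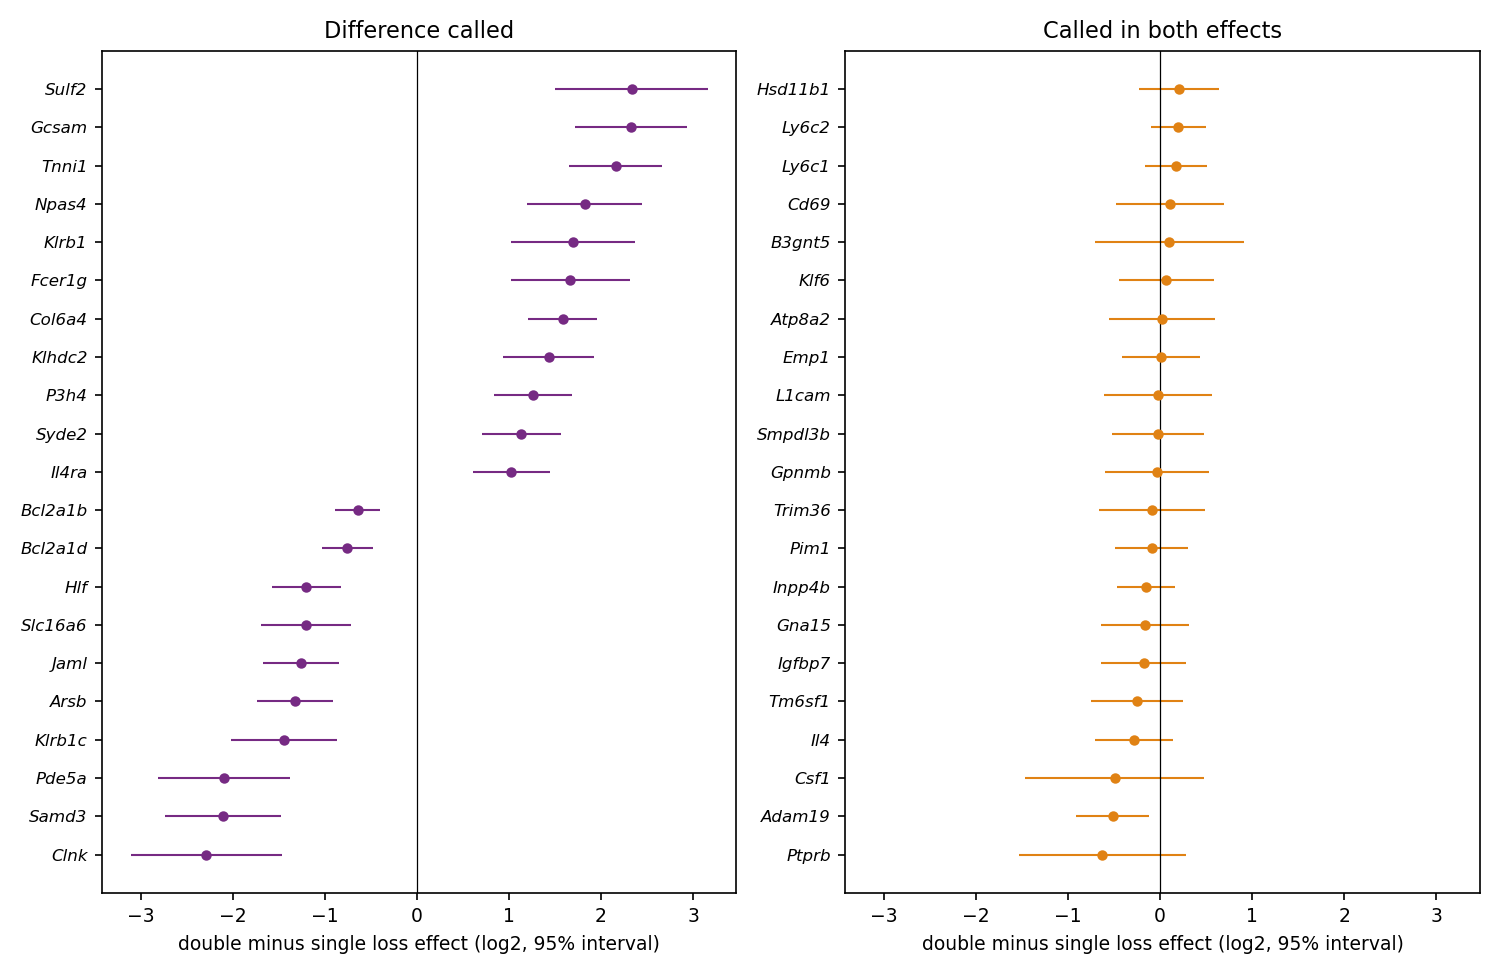
Difference of effects (double minus single loss, log2) with its 95% interval for named genes with a called difference (left, Thrsp left out since it was below the negative controls on every array) and for named genes called in both effects (right). On the left every interval excludes 0, which follows from choosing those genes by this same test. On the right every interval but that of Adam19 includes 0, and that of Csf1 is the widest. For Npas4, Klrb1, Col6a4, Hlf and Ptprb at least 1 set had no array above the negative controls, so their positions are not measured sizes.

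Large effects called on 1 side were often not called in the difference. Genes that fell after double loss and did not pass after single loss included Tlr7, the endosomal receptor for single-stranded RNA (-2.53, adjusted p = 0.00348), Akap6, a scaffold for protein kinase A (-2.07, adjusted p = 0.000754), and Myo6, an unconventional myosin (-1.96, adjusted p = 0.0062). Tlr7 was 6.39 and 6.93 in dKOMst against 9.19, 9.21 and 9.16 in later-numbered WT, and 8.24, 9.01, 8.46 and 9.32 in Mst1KO against 9.37, 9.58 and 9.15 in earlier-numbered WT. The Mst1KO arrays spread over more than 1 log2 unit and reached into the WT range, and the difference of -1.92 was not called (adjusted p = 0.28). Kcnn2, a calcium-activated potassium channel, was below the negative controls on both dKOMst arrays and so at least 3.51-fold lower than in later-numbered WT (adjusted p = 0.000395). The differences of Akap6 (-0.98, adjusted p = 0.557), Myo6 (-0.72, adjusted p = 0.797) and Kcnn2 (adjusted p = 0.43) were not called either. Each was smaller in size than the double loss effect of its gene, so the single loss estimates of these genes were falls as well. Among the genes called after single loss and not after double loss, Cysltr1, a receptor for cysteinyl leukotrienes, was 8.45, 8.84, 8.98 and 9.47 in Mst1KO against 7.46, 6.44 and 6.40 in earlier-numbered WT, and 5.26 and 6.46 in dKOMst against 5.58, 6.01 and 7.07 in later-numbered WT. Its single loss effect was 2.17 (adjusted p = 0.0253) and its difference -2.53 (adjusted p = 0.221). Without dKOMst array 1 the double loss calls of Tlr7 and Myo6 were lost (adjusted p of 0.158 and 0.223), and Cysltr1 lost its single loss call when any 1 of 5 arrays was left out.

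Immediate early genes are switched on within minutes of T cell receptor signalling or of handling stress. Of the 32 measured members of this list, 6 rose after single loss (Fosb, Jun, Fos, Cd69, Zfp36 and Nfkbiz), against 0.225% of all clusters, and 0 fell. After double loss 1 rose (Cd69) and 1 fell (Nr4a3), and 0 differences were called. The list as a whole had a median difference of -0.04, against 0.02 over all clusters, with 14 of 32 above 0. Its median single loss effect was 0.12. Fos was 9.44 and 9.92 in dKOMst against 9.63, 9.46 and 9.98 in later-numbered WT, and 11.13, 10.95, 10.77 and 11 in Mst1KO against 8.999, 9.48 and 9.88 in earlier-numbered WT. Mst1KO was clear of the other 3 sets, which overlapped, and the difference of -1.52 (95% interval -2.21 to -0.82) had an adjusted p of 0.099. Fosb behaved alike, with effects of 0.14 after double and 1.79 after single loss and a difference of -1.66 (adjusted p = 0.268). Without WT array 3 the differences of Fos and Fosb were called (adjusted p of 0.0313 and 0.0168). Jun had effects of 0.98 after double loss (adjusted p = 0.145) and 1.56 after single loss (adjusted p = 0.00249), with a difference of -0.58 (adjusted p = 0.797). With the 2 Mst1KO arrays without Y-linked signal left out, 5 of the 6 single loss calls were lost, those of Jun, Fosb, Cd69, Zfp36 and Nfkbiz (adjusted p of 0.0598, 0.149, 0.137, 0.257 and 0.26), and that of Fos was kept (adjusted p = 0.038). The single loss call of Fosb was also lost without WT array 1 or 2, that of Nfkbiz with any 1 of 4 arrays left out and that of Zfp36 with any 1 of 5.

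NKT17 markers had the lowest median difference of the 34 lists. It was -1.31, against 0.02 over all clusters, and 17 of 19 measured members had a negative difference. The median effect was -0.39 after double and 0.48 after single loss, and 0 of 19 differences were called, although 11 had an unadjusted p below 0.05 (7.35% of all clusters did). The list mean was 8.89 and 9.58 in dKOMst against 9.54, 9.57 and 9.81 in later-numbered WT, and 9.998, 10.04, 9.92 and 10.06 in Mst1KO against 9.46, 9.40 and 9.14 in earlier-numbered WT. Mst1KO was the highest set and dKOMst array 1 the lowest array; dKOMst array 2 lay within later-numbered WT. Without dKOMst array 1 the median difference was -0.82, without dKOMst array 2 it was -1.57, and it was negative in all 22 settings, both scalings included. The WT sets differed too, with 15 of 19 members higher in later-numbered WT (median 0.36), and the median difference was -0.779 with all 6 WT arrays as 1 group and -0.854 with an additive block term.

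Single NKT17 markers are given here with names chosen after their values were seen, except 5830411N06Rik and Maf. Tmem176b, a membrane protein enriched in IL-17-producing T cells, was 7.95 and 9.06 in dKOMst against 9.50, 10.49 and 10.71 in later-numbered WT, and 10.66, 10.76, 10.67 and 11.03 in Mst1KO against 9.98, 10.01 and 9.69 in earlier-numbered WT. Its difference of -2.62 ± 0.54 had an adjusted p of 0.0638, and that of the related Tmem176a, -2.03 ± 0.41, one of 0.0529. Ccr6, a chemokine receptor of IL-17-producing cells, was 7.84 and 9.65 in dKOMst against 9.09, 8.66 and 9.09 in later-numbered WT, and 10.31, 10.24, 10.05 and 9.98 in Mst1KO against 8.77, 8.52 and 7.36 in earlier-numbered WT. The 2 dKOMst arrays fell on either side of their WT, and the difference of -2.13 (95% interval -3.64 to -0.62) had an adjusted p of 0.428. Members called after double loss, both lower (0.342% of all clusters were), were Maf, a transcription factor needed by NKT17 cells (-0.74, adjusted p = 0.048), and 5830411N06Rik (-1.38, adjusted p = 0.00742), and both lost that call without dKOMst array 1 (adjusted p of 0.688 and 0.334), Maf also with any 1 of 8 other arrays left out.

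**Figure D4:**
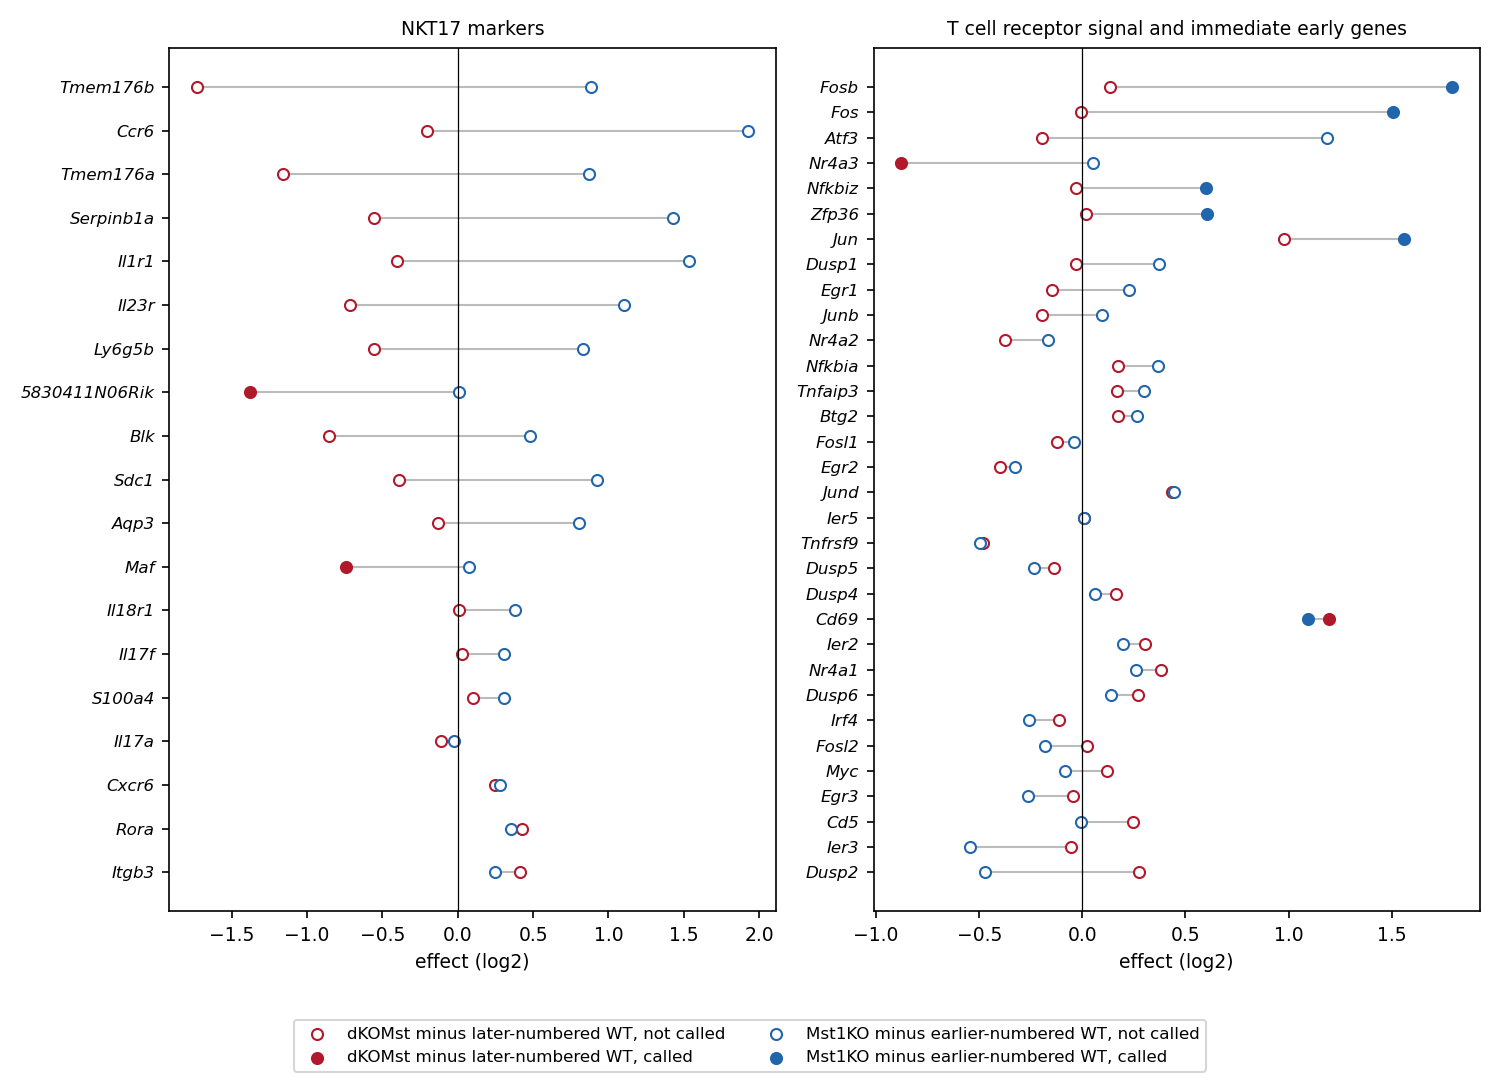
Double loss effect (red) and single loss effect (blue) on the log2 scale for each measured NKT17 marker (left) and each measured T cell receptor signal and immediate early gene (right); filled points passed the adjusted p threshold, open points did not, and a grey line joins the 2 effects of a gene. Most NKT17 markers have the red point to the left of the blue one, and Fos, Fosb, Zfp36 and Nfkbiz are filled in blue only, near 0 in red.

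Genes of adhesion, homing and egress are those for which Mst1 is best known in T cells. After double loss 5 of 24 rose (Itga4, Cd69, S1pr1, Itgam and S1pr4), against 0.419% of all clusters, after single loss 2 (Cd69 and Jaml), and Jaml was the 1 called difference. Itga4, the α4 integrin subunit, was 10.69 and 10.54 in dKOMst against 9.27, 8.98 and 9.19 in later-numbered WT, and 10.14, 10.39, 10.48 and 9.91 in Mst1KO against 9.33, 9.38 and 10.09 in earlier-numbered WT. The dKOMst arrays were the 2 highest of the 12, and Mst1KO overlapped its WT through WT array 3. Its effects were 1.47 (adjusted p = 0.00164) and 0.63 (adjusted p = 0.245), and its difference of 0.84 had an adjusted p of 0.491. S1pr1, the receptor that guides egress, had effects of 1.03 (adjusted p = 0.00348) and 0.25 (adjusted p = 0.725), and a difference of 0.78 (95% interval 0.31 to 1.26, adjusted p = 0.28). Without dKOMst array 1 the double loss calls of Itga4 and S1pr1 were lost (adjusted p of 0.0776 and 0.201), as were those of Cd69 (0.143) and Itgam (0.361), and that of Itgam also without WT array 4 or 5. Itgae, the αE integrin subunit, chosen after its values were seen, had a difference of -1.25 (adjusted p = 0.0691).

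Of the 29 measured Hippo kinases and partners, 2 rose after double loss, against 0.419% of all clusters: Stk38, the NDR1 kinase downstream of Mst1 (0.60, adjusted p = 0.0363), and Rassf1, an Mst-binding scaffold (0.58, adjusted p = 0.0475). After single loss 1 fell, Stk4 itself, against 0.117% of all clusters, and 0 differences were called. Of the 30 YAP and TEAD target genes, 1 fell after double loss (Ajuba, -1.53, adjusted p = 0.0272), against 0.342% of all clusters. After single loss 1 rose (Gadd45b, 0.77, adjusted p = 0.0449), against 0.225%, and 0 differences were called. The median difference was 0.04 for the Hippo list and -0.003 for the YAP list, against 0.02 for all clusters. Each of these calls but that of Stk4 was lost on leaving out any 1 of several arrays: 5 for Stk38, 8 for Rassf1 and 4 for Ajuba, both dKOMst arrays among them in each case, and 9 for Gadd45b. Without dKOMst array 1 the adjusted p was 0.442 for Stk38, 0.56 for Rassf1 and 0.366 for Ajuba. Among the 100 measured genes nearest to Stk4 on its chromosome, 0 differences were called and Pcif1 rose after double loss; among those nearest to Stk3, 0 were called and Matn2 fell after double loss. These counts lie near the shares over all clusters, 0.104% for the difference and 0.761% for double loss.

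The 35 measured genes of G2 and M phase had a median difference of -0.42, with 31 of 35 negative and 0 called. Their list mean was 8.51 and 8.85 in dKOMst against 8.77, 9.04 and 9.06 in later-numbered WT, and 8.70, 8.49, 8.79 and 8.08 in Mst1KO against 7.98, 8.46 and 8.57 in earlier-numbered WT. The sets overlapped, and the WT sets themselves differed, all 35 members being higher in later-numbered WT (median 0.61). With all 6 WT arrays as 1 group the median difference was 0.165, of the opposite sign. The 41 measured cytosolic ribosomal protein genes all had a negative difference, of small size (median -0.14, lowest -0.34, 0 called). All 41 were also lower after double loss (median -0.19), with Rps19 the 1 that passed (-0.40, adjusted p = 0.0455, lost with any 1 of 10 arrays left out). The median difference of this list was -0.08 after a second quantile normalization and negative in all 22 settings. The difference called 0 members of 27 of the 34 lists.

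Stage 3 arrays gave no level to the difference, though they shared in the estimate of the spread behind its p-values. They hold 1 dKOMst array, so their values are given without a test. At stage 3 the double loss effect had the same sign as at S1_S2 in 18 of the 23 clusters (78.3%). That share was 76.3% for the 169 double loss calls and 50.7% for all clusters, so it was not particular to the 23. The dKOMst array lay beyond the range of the 3 later-numbered WT arrays in the same direction in 15 (65.2%, against 55.6% of the 169 and 26.8% of all). The difference itself, double minus single loss, kept its S1_S2 sign in 16 of the 23 (69.6%, against 52.1% of the 169 and 51% of all clusters). Klrb1 was 7.57 in dKOMst against 5.53 to 6.14 in later-numbered WT at stage 3. P3h4 was 7.77 in dKOMst against 6.86 to 7.23 in WT, and Fcer1g 9.86 in dKOMst against 9.09 to 9.52 in WT. Gcsam, at 6.49 in dKOMst against 6.503 to 6.78 in later-numbered WT, did not show its S1_S2 rise there. Nor did Npas4 (5.36 in dKOMst against 5.32 to 5.46 in WT), Col6a4 (6.26 in dKOMst against 6.23 to 6.55 in WT) or Il4ra (10.41 in dKOMst against 10.48 to 10.65 in WT). Among genes lower at S1_S2, Samd3 (10.7 against 10.55 to 10.95) and Bcl2a1d (12.66 against 12.62 to 12.69) lay within the WT range at stage 3. Bcl2a1b was just below it (12.75 against 12.77 to 12.8). Clnk (9.16 against 9.62 to 9.83), Arsb (11.45 against 11.53 to 11.77) and Pde5a (6.30 against 6.52 to 7.04) were below WT at stage 3 too. Whether the stage 3 cells came from the same mice as the S1_S2 cells is not given.

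**Figure D5:**
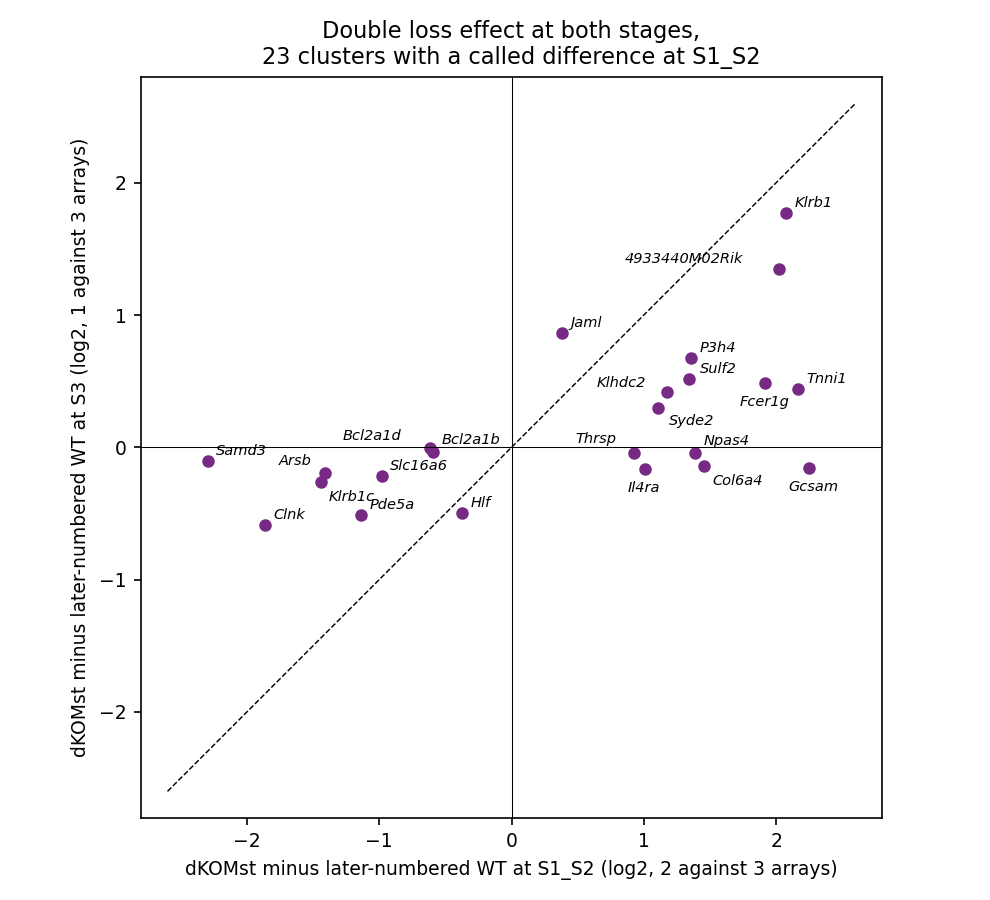
Double loss effect at stage 3 (vertical, 1 dKOMst array minus the mean of 3 later-numbered WT arrays, log2) against that at S1_S2 (horizontal, 2 minus 3 arrays, log2) for the 23 clusters with a called difference; the dashed line marks equal effects. Klrb1, P3h4, Fcer1g and Sulf2 are above 0 at both stages, while Gcsam, Col6a4, Npas4 and Il4ra lie at or just below 0 at stage 3.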

How the data were processed

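Clariom S arrays measured RNA of sorted thymic iNKT cells, amplified from small inputs per the labels' protocols. The deposited values are log2 signals. The submitters' processing notes name RMA and Affymetrix Expression Console 1.1, and no genome build. RMA makes the arrays share 1 distribution, so a change in total RNA per cell cannot be seen. Of 28846 items, 6640 controls were left out, and the remaining 22206 transcript clusters were tested; 19572 had 1 gene symbol in the platform annotation and 2634 had none. The columns were analysed without further scaling.

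limma 3.58.1 (R 4.3.3) fitted a mean for each group within each block of title numbers (501 to 528, 533 to 543) over all 25 arrays, with 17 residual degrees of freedom. The blocks were read from the titles, and the labels name no batch. A cluster was taken as above background where it exceeded the median negative control of its array (6.202 to 6.549 over the 12 arrays), and was above it on none of the 12 in 27.6% of cases. Where 1 set was above on no array, a fold is given as a lower limit: the bright set's mean against, per array, the higher of the dim value and the negative control median. On simulated data with 50 clusters changed per size, the difference recovered 78% of changes of 1 log2 unit and 14% of changes of 0.5. It recovered 7, 39, 44 and 49 changes of 0.5, 1, 1.5 and 2. There were 19 false calls over all sizes, a share above the 5% that the threshold aims at. More clusters were called there than the 23 of the data, which loosens the adjusted threshold, so recovery in these data may be lower.

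Named genes were the called differences with the largest rise and fall, the largest calls of each effect, and up to 3 called members of each of 34 gene lists; the stage and Hippo genes were eligible whatever their test. The members and lists were chosen with earlier results of these data known. Itgam, Itgae, Zfp36, Nfkbiz, Emp1, Ly6c1, Tmem176a, Tmem176b and Ccr6, and genes given with a count that they complete, were named after their values were seen. Promoter sequences and gene order came from RefSeq (GRCm38.p6). Alternatives changed the arrays fitted, the treatment of the number blocks, the scaling, the variance model, the dim filter and the minimum fold.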

Additional observations from a re-analysis of the deposited data

Results flagged for a closer look

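In groups of 4 to 6 arrays, 8 of 162 tests over 81 genes found 1 array far from its group by Dixon's test. The genes were chosen and are not independent, so this share was not set against chance. The group of 6 WT arrays joins both number blocks, and WT array 3 holds more of the 8 than any other array. Jaml was 10.97 on Mst1KO array 3, against 11.16 to 11.19 on the other Mst1KO arrays. 5830411N06Rik was 9.201 on the same array, against 9.454 to 9.504. Among the 6 WT arrays, array 3 stood apart for Ptprb at 5.531 (others 6.778 to 7.334), Akap6 at 8.68 (9.838 to 10.33), Itga4 at 10.09 (8.978 to 9.377) and Ccr6 at 7.363 (8.52 to 9.093). WT array 2 stood apart for Fcer1g at 5.532 (others 6.299 to 6.754) and Cd163l1, a scavenger receptor of γδ T cells, at 8.796 (others 9.197 to 9.412).

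The single dKOMst array of stage 3, which no test used, lay above all 3 later-numbered WT arrays of that stage, and above its own negative control median (6.367), for 7 genes with a called difference at S1_S2. Tnni1 (6.341) and 4933440M02Rik (5.843) were above those WT arrays but below that median. It read 9.864 for Fcer1g (WT 9.091 to 9.522), 9.44 for Sulf2 (WT 8.398 to 9.196) and 7.5 for Syde2 (WT 6.992 to 7.452). It read 7.565 for Klrb1 (WT 5.532 to 6.144), 7.765 for P3h4 (WT 6.862 to 7.233) and 9.313 for Klhdc2 (WT 8.779 to 9.081). Jaml, lower in the difference at S1_S2, read 11.87 there (WT 10.9 to 11.19). The stage 3 Mst1KO arrays read 11.51 to 11.89 for Jaml, against 10.89 to 11.07 in earlier-numbered WT. Its difference of double minus single loss was thus 0.15 at stage 3, of the opposite sign to that at S1_S2.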

How the results depend on the processing

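The 23 called differences became 7 with the 12 S1_S2 arrays alone, 38 with an additive block term, 195 with all 6 WT arrays as 1 group, 41 with array weights, 2 under a minimum of 1.5-fold (limma's treat) and 5 with only arrays that had Y-linked signal. Leaving out single arrays gave 3 to 37. The 169 double loss calls became 265 with WT as 1 group, 286 with a trended and robust variance, 274 with array weights and 12 under the minimum fold (34 to 194 with single arrays left out). The 76 single loss calls became 116 with the additive term, 148 with WT as 1 group, 3 under the minimum fold and 19 with only arrays that had Y-linked signal (35 to 110). The 161 calls between WT blocks became 30 with the 12 arrays, 63 after a second quantile normalization, 251 without dim clusters, 270 with a trended and robust variance, 340 with array weights, 0 under the minimum fold by treat (3379 had an unadjusted p below 0.05) and 23 with only arrays that had Y-linked signal (3 to 786). The causes of these shifts were not tested. Fewer arrays, or a minimum fold, leave less power by construction. Of 21 named called differences 2 kept their call in all 22 settings and 0 changed sign. 12 of 161 named values, each an uncalled difference, changed sign in some setting. With the additive term Nr1d1 was 0.086, Atp8a2 -0.025 and Emp1 -0.077. With WT as 1 group Ptprb was 0.060, Atp8a2 -0.605, Car11 -0.13, Cd24a 0.21, Cd69 -0.046, Mki67 0.12 and Emp1 -0.27. With array weights Klf6 was -0.069, and with only arrays that had Y-linked signal Emp1 was -0.010. With single arrays left out the uncalled differences that changed sign ran from -0.67 to 0.028 for Nr1d1, -0.37 to 0.019 for Cd44, -0.044 to 0.74 for Eng, -0.12 to 1.18 for Akr1c18, -0.19 to 0.30 for Klf6, -0.20 to 0.23 for Atp8a2, -0.14 to 0.25 for Cd69 and -0.075 to 0.16 for Emp1. No paired analysis was possible because the labels give no replicate numbers that the groups share. Signal near the negative controls limits Col6a4, Klrb1, Hlf, Npas4, Thrsp and 4933440M02Rik.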
